A study of Mus musculus with 32 samples.

Results

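Glutamate released by neurons is cleared by transporters of the SLC1 family, which move it into glia and neurons together with sodium. Inside glia, glutamine synthetase (Glul) joins glutamate to ammonia to form glutamine, and glutamate dehydrogenase (Glud1) carries glutamate into the tricarboxylic acid cycle. Glutamine passes back to neurons, where it is turned into glutamate again and loaded into synaptic vesicles by vesicular glutamate transporters (Slc17a6 and Slc17a7). Astrocytes are best known for the uptake and glutamine steps, and the median eminence (ME) is a hypothalamic region where astrocytes lie beside tanycytes, the radial glia that line the floor of the third ventricle.

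The expression of 7 genes of this cycle was described in single cells of the mouse ME. They were chosen by symbol from the 27998 genes of the matrix, by a rule that sets no threshold on their values: the glial glutamate transporters Slc1a2 (GLT-1) and Slc1a3 (GLAST), the transporter Slc1a1 (EAAC1), the enzymes Glul and Glud1, and the vesicular transporters Slc17a6 (VGLUT2) and Slc17a7 (VGLUT1). All 7 are single protein-coding rows of the matrix. In the GRCm38 annotation (GENCODE vM21), Slc1a2 lies at chr2:102658659-102790784 (+ strand), Slc1a3 at chr15:8634124-8710764 (- strand), Slc1a1 at chr19:28835049-28913960 (+ strand) and Glul at chr1:153899944-153909723 (+ strand). Glud1 lies at chr14:34310727-34345265, Slc17a6 at chr7:51622006-51671119 and Slc17a7 at chr7:45163949-45176142, all on the + strand.

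The cells came from the ME of male C57B/L6 mice aged 40 to 47 days, and the labels name no transgene. There were 5 mice fasted overnight (16 h) and 5 mice given normal chow for 1 h after that fast. The tissue was dissociated with papain, and live single cells were sorted. The mice of each condition formed a pool, and each pool was split over 2 droplet libraries (10x Genomics 3' chemistry). In these libraries a unique molecular identifier (UMI) marks each captured transcript. Barcodes carry a suffix, 1 to 4, that is not tied to a condition or library in the sources used here, so fasted and refed cells were taken as 1 pooled sample and were not compared. The 4 numbers are given below as 4 sets of cells, not as replicates, and no test between groups of mice was possible.

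The 5982 cells held 29288898 UMIs, with a median of 3837 UMIs per cell and medians of 3518 to 4057 over the 4 barcode numbers. Clustering without the 7 genes and without the other genes of the glutamate pathway gave 24 clusters, of which 21 were named as 13 cell types from marker lists and 3 (413 cells) stayed unnamed. Every marker of each list was detected in its own type, and all markers were highest there except for 1 of the 11 tanycyte genes. The clusters were named from these same markers, so this is not a separate check of the names. The largest groups were 1419 astrocyte-like, 1284 tanycyte-like, 666 mature oligodendrocyte-like (MOL-like) and 564 neuron-like cells. There were also 311 oligodendrocyte precursor-like (OPC-like) cells and 129 differentiating OPC-like (diffOPC-like) cells. A barcode occurred under more than 1 number for 21 barcodes (42 cells), and leaving these cells out kept each of 6 genes within its counting interval in its highest type.

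Levels are counts per 1000000 (CPM), the UMIs of the gene scaled to the UMIs of all cells of a type. Intervals in brackets are exact 95% limits (Poisson for CPM, Clopper-Pearson for shares of cells) and cover counting error only, and the 4 values that follow some levels are those of barcode numbers 1 to 4. The method reads the 3' end of transcripts, so levels were compared between cell types within a gene and not between genes.

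Slc1a2, the transporter that does most of the glutamate clearance of the forebrain, was highest in astrocyte-like cells, at 1563 CPM (1524 to 1603). Its values there were 1473, 1602, 1619 and 1577 CPM in the 4 barcode numbers. Among the named types OPC-like cells came next at 359.7 CPM (327 to 394), with 314, 326, 415 and 427 CPM. An unnamed cluster of 354 cells led by Gfap and Tgfb2 lay between astrocyte-like and OPC-like cells. It had 586 CPM (549 to 624), with 471 to 671 CPM in the 4 numbers. Astrocyte-like cells lay above OPC-like cells in all 4 numbers without overlap, and they held 69.9% of all 8770 Slc1a2 UMIs. The level in tanycyte-like cells was 119 CPM (109.5 to 128) and in ependymocyte-like cells 86.7 CPM (69.3 to 107). These neighbours in the order stayed apart, with tanycyte-like cells higher in all 4 numbers. From there down the order could not be told: endothelial-like, VLMC-like (vascular and leptomeningeal), MOL-like, microglia-like, pars tuberalis-like, macrophage-like, mural-like and neuron-like cells ran from 55.8 to 29.8 CPM, and each overlapped its neighbour. DiffOPC-like cells were lowest, at 15.9 CPM (9.4 to 25.1), with an interval below that of neuron-like cells but 4 values that overlapped theirs.

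Slc1a3, the transporter that marks radial glia and astrocytes, had the same highest type. Astrocyte-like cells reached 3529.8 CPM (3471 to 3589), with 3729, 3569, 3432 and 3339 CPM in the 4 numbers. Tanycyte-like cells were next at 717 CPM (695 to 740.4), with 725, 758, 651 and 724 CPM, and here too the sets did not overlap. Ependymocyte-like cells had 281 CPM, OPC-like cells 218 CPM, microglia-like cells 210.3 CPM and VLMC-like cells 181 CPM. Ependymocyte-like and OPC-like cells had separate intervals but overlapping values in the 4 numbers. The intervals of OPC-like and microglia-like cells overlapped, as did those of microglia-like and VLMC-like cells. MOL-like cells followed at 102 CPM, and the remaining types lay between 25.6 and 57.8 CPM with neighbours that overlapped.

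The 2nd of the named types differed between these transporters. For each Slc1a3 UMI there were 0.443 Slc1a2 UMIs in astrocyte-like cells, 0.165 in tanycyte-like cells and 1.65 in OPC-like cells. In the 4 barcode numbers this ratio ran from 0.395 to 0.472 in astrocyte-like cells, from 0.143 to 0.189 in tanycyte-like cells and from 1.49 to 2.04 in OPC-like cells, so that the 3 types did not overlap. The 10 astrocyte marker genes summed to 17841 CPM in astrocyte-like, 887 CPM in tanycyte-like and 587 CPM in OPC-like cells, and the part of free astrocyte RNA in the transporter levels of the other types was not tested.

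**Figure D1:**
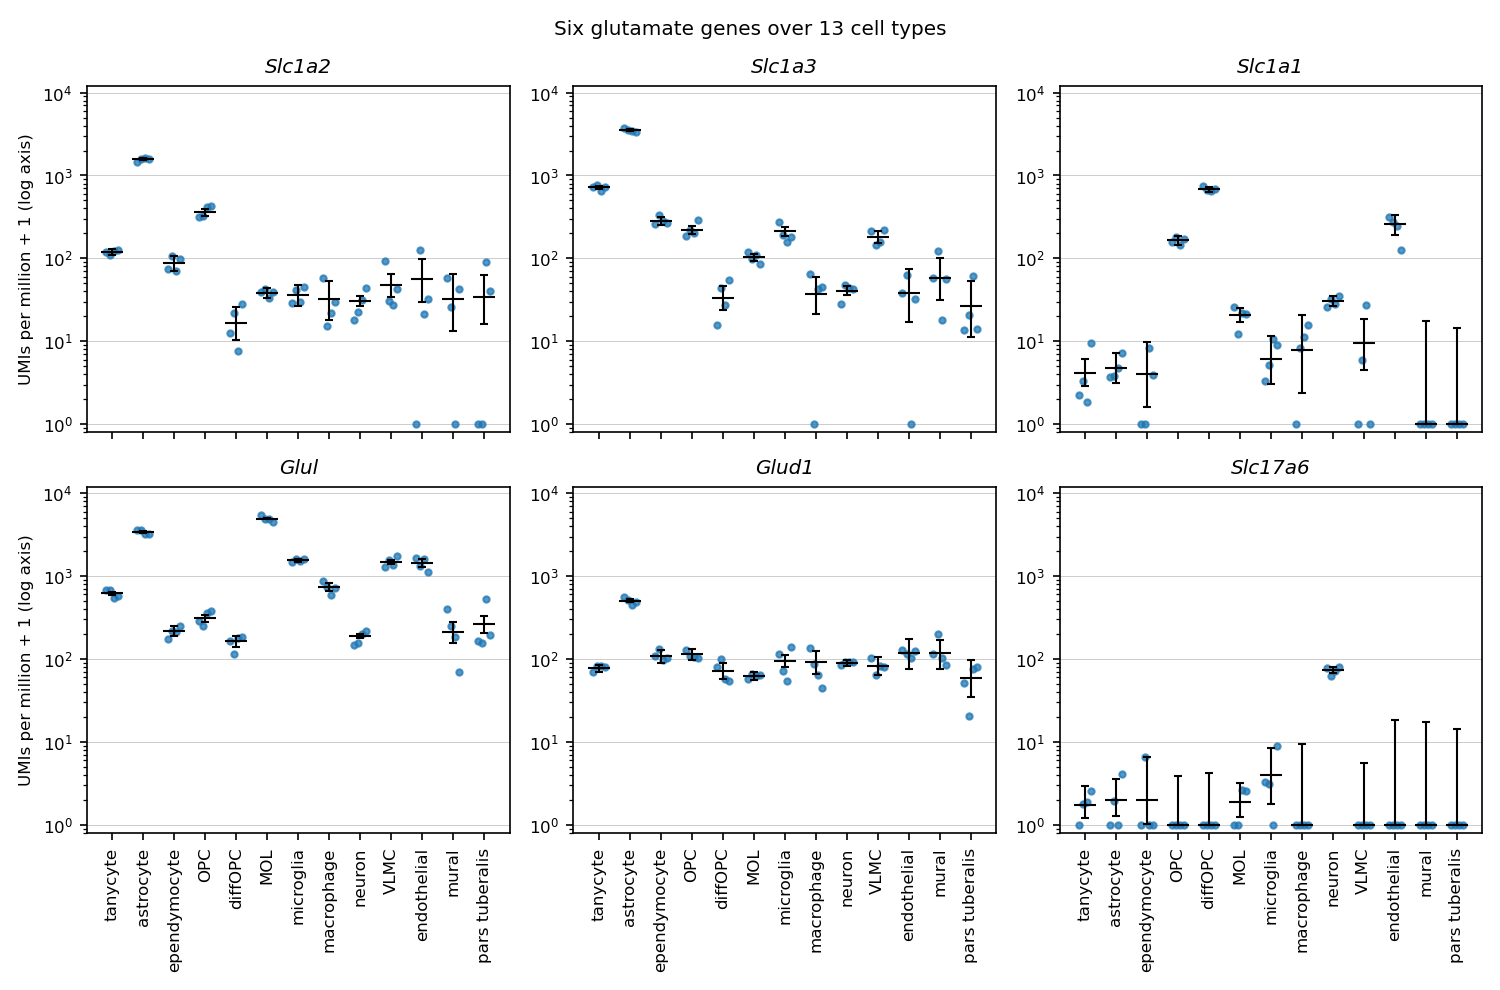
Levels of 6 of the genes in the 13 cell types, as CPM plus 1 on a log axis. Black marks are all cells of a type with the exact 95% Poisson interval, and blue points are the 4 barcode numbers, drawn at 1 where no UMI was counted. Slc1a2, Slc1a3 and Glud1 peak in astrocyte-like cells, Slc1a1 in diffOPC-like cells (685 CPM), Glul in MOL-like cells (4917 CPM) and Slc17a6 in neuron-like cells (73.0 CPM).

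The stretches before the transcription starts of Slc1a2 and Slc1a3 are shown because these transporters shared their highest cell type. They are from RefSeq (GRCm38.p6), read on the gene's strand and kept only where no annotated exon overlaps. The Slc1a2 stretch is chr2:102706188-102706355 (+ strand), from 250 to 83 bases before the start, and the Slc1a3 stretch is chr15:8710808-8711057 (- strand), the 250 bases before the start. The Slc1a2 start used by RefSeq lies inside the span of the GENCODE gene, which begins further upstream. All 7 genes had a promoter entry. Capitals mark matches on either strand to the core letters of the TATA box (TATAAA), of the CCAAT box, of the GC box (GGGCGG) or of the SOX motif (ACAAAG).
Slc1a2: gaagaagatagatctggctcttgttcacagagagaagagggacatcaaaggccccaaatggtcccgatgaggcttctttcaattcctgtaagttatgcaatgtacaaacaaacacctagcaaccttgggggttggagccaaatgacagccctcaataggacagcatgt
Slc1a3: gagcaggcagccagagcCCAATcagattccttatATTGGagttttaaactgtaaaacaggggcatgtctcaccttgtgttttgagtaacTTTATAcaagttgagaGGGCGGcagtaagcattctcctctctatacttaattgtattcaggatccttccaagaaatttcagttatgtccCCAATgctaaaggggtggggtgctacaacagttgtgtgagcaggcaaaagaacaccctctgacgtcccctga
The Slc1a3 stretch held 3 matches to CCAAT, 1 to TATAAA and 1 to GGGCGG. Among 32851 promoter windows of the same 250 bases, 33.8% held CCAAT, 12.4% TATAAA, 32.7% GGGCGG and 16.5% ACAAAG. None of the 4 letter strings occurred in the 168 bases of Slc1a2, where 22.8% of windows of that length held CCAAT, 8.01% TATAAA, 19.2% GGGCGG and 11.4% ACAAAG. The GC content was 46.4% for Slc1a2 and 44.8% for Slc1a3, against a median of 52.4% over all windows. That median is of the full 250 bases before each start, so it is not matched to the 168 bases of Slc1a2.

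Glul, which makes glutamine, was broad, and its highest level was not in astrocyte-like cells. MOL-like cells reached 4917 CPM (4853 to 4981), with 5467, 4940.0, 4820.1 and 4480.3 CPM in the 4 numbers. Astrocyte-like cells had 3405 CPM (3347 to 3463), with 3579, 3549, 3207 and 3208 CPM. MOL-like cells were thus 1.44 times as high, and the 2 sets of 4 values did not overlap. Over the alternative settings this ratio ran from 1.42 to 1.66. It was 1.66 with cells thinned to 1000 UMIs and with means of per-cell CPM. Of all 46454 Glul UMIs, 48.8% lay in MOL-like cells and 28.7% in astrocyte-like cells. The share of cells with at least 1 Glul UMI was 99.7% in MOL-like cells and 99.2% in astrocyte-like cells at median depths of 6150 and 2665 UMIs. When every cell was thinned to 1000 UMIs the shares were 91.9% (89.6 to 93.9) and 94.6% (93.3 to 95.7). The thinned shares had the opposite order to the levels, but their intervals overlapped. Among thinned MOL-like cells the number of Glul UMIs ranged widely, with a 10th percentile of 1, a median of 5, a 90th percentile of 11 and a variance 2.74 times the mean, against 1.42 times in astrocyte-like cells.

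The next Glul levels were in immune and vascular cells. Microglia-like cells had 1548 CPM (1482 to 1615), VLMC-like cells 1482 CPM (1400 to 1568) and endothelial-like cells 1442 CPM (1286 to 1612), and these 3 overlapped. Within microglia, the 48 cells led by Ccl4, Junb and Ccl3, which are activation genes, had 2249 CPM (2034 to 2481) and the other 357 had 1442 CPM (1375 to 1513). The values of the Ccl4-led cells in the barcode numbers were 1952, 2608, 1552 and 2016 CPM, and those of the others ran from 1370.2 to 1555 CPM. The first set was higher in all 4 numbers, but its lowest value, in number 3, lay inside the range of the second. Macrophage-like cells had 740.2 CPM and tanycyte-like cells 617 CPM. OPC-like, pars tuberalis-like, ependymocyte-like, mural-like, neuron-like and diffOPC-like cells ran from 308 to 162 CPM, each overlapping its neighbour.

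The 8 MOL marker genes summed to 13563 CPM in MOL-like cells, 889 CPM in mural-like, 628 CPM in endothelial-like and 563 CPM in VLMC-like cells, and to 105 to 297 CPM in the other types. The quotient of Glul CPM over this sum was 0.363 in MOL-like and 0.235 in mural-like cells. It was 2.30 in endothelial-like, 2.63 in VLMC-like and 14.7 in microglia-like cells. The part of free MOL RNA in the Glul levels of the other types was not tested.

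Glud1, the mitochondrial glutamate dehydrogenase, was at 506 CPM (484 to 529) in astrocyte-like cells, with 559, 511, 453 and 484 CPM in the 4 numbers. Among the named types endothelial-like cells were next at 116 CPM (75.2 to 172), with 101 to 129 CPM. All other types lay between 58.6 and 116 CPM, and every pair of neighbours below astrocyte-like cells overlapped. Astrocyte-like cells held 48.1% of the 4126 Glud1 UMIs, neuron-like cells 14.8% and tanycyte-like cells 9.86%.

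For 5 of the 6 genes with at least 50 UMIs in all cells, the highest cell type was at least 2 times the next. This was counted on the (CPM + 10) scale over the 13 named types. Of all 13825 genes with that many UMIs, 17.5% did the same. The 5 were Slc1a2 and Slc1a3 (4.26 and 4.87 times), Slc1a1 (2.62 times), Glud1 (4.09 times) and Slc17a6 (6.41 times). Glul was short of that line at 1.44 times, and Slc17a7 had too few UMIs. Where K-means was used in place of graph clustering, several types had no named cluster of their own and 3 genes passed. Neuron-like, diffOPC-like and OPC-like cells were among the types lost. The next type for Slc1a2 was then tanycyte-like cells at 220 CPM, and its ratio was 6.85. In 5 other settings 4 genes passed, and the gene lost was Slc17a6. With the pathway genes among the variable genes, with doublets left out, or without barcode number 2 or 3, its next type became pars tuberalis-like cells at 32.0 to 40.4 CPM and its ratio was 1.61 to 1.99. At 1000 UMIs per cell it had 43 UMIs in all, under the minimum.

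Astrocytes and tanycytes were the most numerous cells of the matrix, so these types were set beside each other. All 4 members with at least 50 UMIs in this pair were higher in astrocyte-like cells by at least 2 times. Of 10698 genes, 7.63% were higher by that much and 10.8% were lower. The ratio on the (CPM + 10) scale was 12.2 for Slc1a2, 4.87 for Slc1a3, 5.45 for Glul and 5.97 for Glud1. The shares of genes with a larger ratio were 0.374%, 1.89%, 1.496% and 1.25%, and the median over all genes was -0.14 on the log2 scale. Slc1a1 was near the floor in both types, with 15 UMIs in astrocyte-like and 17 in tanycyte-like cells.

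**Figure D2:**
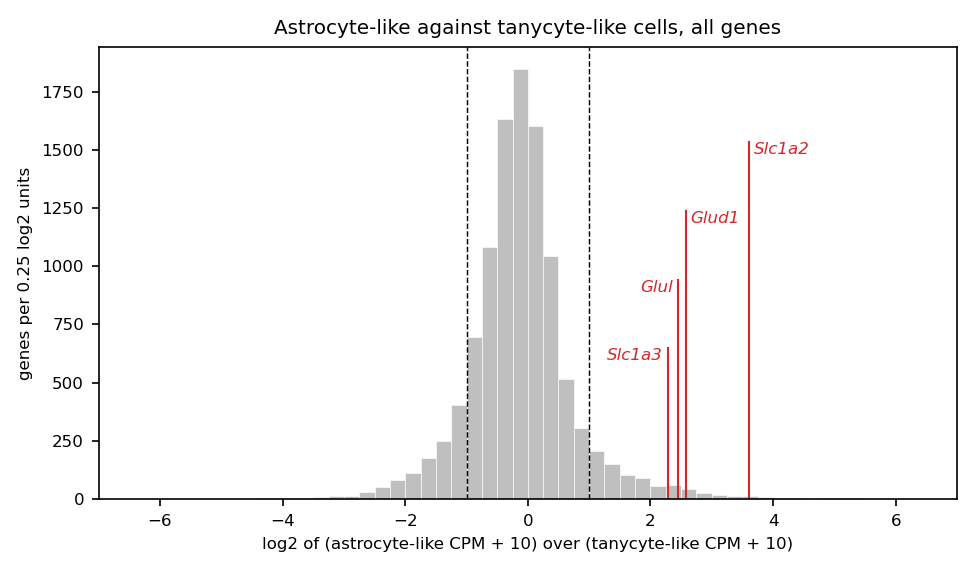
Ratio of astrocyte-like over tanycyte-like levels for 10698 genes, as log2 of (CPM + 10) quotients, in bins of 0.25. Dashed lines mark 2-fold differences, and red lines, whose heights carry no value, mark Slc1a3 (2.28), Glul (2.45), Glud1 (2.58) and Slc1a2 (3.61), all right of the upper line.

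Tanycyte-like cells formed 2 clusters, 736 cells led by Dio3 and Kctd14 and 548 cells led by Scn7a and Col25a1. Glul was 459 CPM (434 to 485) in the Dio3-led and 780.2 CPM (747 to 815) in the Scn7a-led cells, and in the 4 numbers it ran from 456 to 463 CPM and from 632 to 865 CPM, without overlap. Slc1a2 had the other order, at 154 CPM (139 to 169) and 82.2 CPM (71.6 to 94.0), with no overlap of the 4 numbers. For Slc1a3 the clusters had 698 CPM (667 to 730.2) and 737 CPM (705 to 771), and both the intervals and the 4 numbers overlapped.

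Among astrocyte-like cells, 63 cells led by Gfap and Myoc stood beside 1356 cells led by Agt and Itih3. The Gfap-led cells had 2279 CPM of Glul (2076 to 2496) against 3466 CPM (3407 to 3527), and 2805 CPM of Slc1a3 (2579.5 to 3045) against 3569 CPM (3509 to 3631). Their Slc1a2 level was 1786 CPM (1607 to 1980.0) against 1551 CPM (1511 to 1591). The 4 numbers of the Gfap-led cells ran from 1312 to 2069 CPM for Slc1a2 and spanned those of the other cells, while for Glul and Slc1a3 they lay below them without overlap.

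Single astrocyte-like cells mostly held all 3 of the abundant uptake and glutamine transcripts. At least 1 UMI of each of Slc1a2, Slc1a3 and Glul was found in 94.9% (93.6 to 95.9) of astrocyte-like cells, 22.2% of tanycyte-like cells, 29.3% of OPC-like cells and 9.76% of MOL-like cells. At 1000 UMIs per cell the shares were 69.1% (66.7 to 71.5), 2.18%, 1.29% and 0.751%. In astrocyte-like cells the product of the shares of the 3 single genes was 94.9% in all UMIs and 69.2% after thinning, so the joint share was that of each gene being found in most cells. No astrocyte-like cell lacked all 3 transcripts, for which the exact upper limit is 0.26%. Thinned astrocyte-like cells held a median of 1 Slc1a2, 3 Slc1a3 and 3 Glul UMIs, with 90th percentiles of 3.2, 7 and 6. The variance was 1.24 times the mean for Slc1a2, 1.34 times for Slc1a3 and 1.00 times for Glud1, where 1 is the value of counting alone.

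Slc1a1, a transporter best known from neurons that also carries cysteine, was highest in neither neurons nor astrocytes. DiffOPC-like cells had 685 CPM (638 to 735), with 737, 659, 645 and 689 CPM in the 4 numbers. Endothelial-like cells had 256 CPM (193 to 333), with 314, 277, 244 and 125 CPM, and OPC-like cells had 164 CPM (143 to 188), with 158, 182, 144 and 170.1 CPM. The intervals of endothelial-like and OPC-like cells did not overlap, but their 4 numbers did, and endothelial-like cells were higher in 3 of 4. The endothelial-like values rested on 55 UMIs in 84 cells. Neuron-like cells had 29.7 CPM (25.7 to 34.1) with a UMI in 28.9% of cells at a median depth of 12731 UMIs. MOL-like cells had 19.9 CPM (16.1 to 24.5), with 4 values that overlapped those of neuron-like cells, and all other types were at 8.62 CPM or less. Mural-like and pars tuberalis-like cells had no Slc1a1 UMI, which with 3 counts as the limit allows up to 13.3 and 10.99 CPM.

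Slc1a1 and Glul had opposite orders along the oligodendrocyte lineage. From OPC-like to diffOPC-like cells, Slc1a1 was 3.99 times higher on the (CPM + 10) scale. Slc1a2 was 14.3 times lower and Slc1a3 5.36 times lower. These were the 3 of 5 tested members past 2-fold. Of 6892 genes in this pair, 6.36% were at least 2 times higher and 12.5% at least 2 times lower. Glul was 1.85 times lower and Glud1 1.51 times lower, both short of the line.

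From diffOPC-like to MOL-like cells, Glul was 28.6 times higher, Slc1a3 2.63 times higher and Slc1a1 23.2 times lower. Of 8105 genes, 8.44% were at least 2 times higher and 14.2% at least 2 times lower. Only 0.197% of the genes had a larger ratio than Glul, and 0.21% a smaller one than Slc1a1. Slc1a2 was 1.83 times higher and Glud1 1.14 times lower. Slc1a3 in MOL-like cells had 102 CPM, where the 10 astrocyte markers summed to 359 CPM against 228 CPM in diffOPC-like cells, and the part of astrocyte RNA in this difference was not tested.

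MOL-like cells themselves fell into 3 clusters, led by Mag, Tspan2 and Adamts4 (80 cells), Ptgds and Car2 (503 cells) and Klk6 and Anln (83 cells). Glul was 644 CPM (594 to 697) in the Mag-led cells, with 946, 791, 376 and 544 CPM in the 4 numbers. It was 6215 CPM (6126 to 6305) in the Ptgds-led cells, with 5827 to 6637 CPM, and 5323 CPM (5151 to 5499) in the Klk6-led cells, with 4544 to 5869.9 CPM. Slc1a1 was 72.5 CPM (56.5 to 91.6) in the Mag-led cells, 6.74 CPM (4.12 to 10.4) in the Ptgds-led cells and 2.94 CPM (0.356 to 10.6) in the Klk6-led cells. The Mag-led cells thus lay between diffOPC-like cells and the other MOL-like cells for both genes, and their 4 numbers overlapped neither neighbour. The share of cells with a Glul UMI after thinning was 43.8% in the Mag-led cells, 98.2% in the Ptgds-led cells and 100% in the Klk6-led cells.

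**Figure D3:**
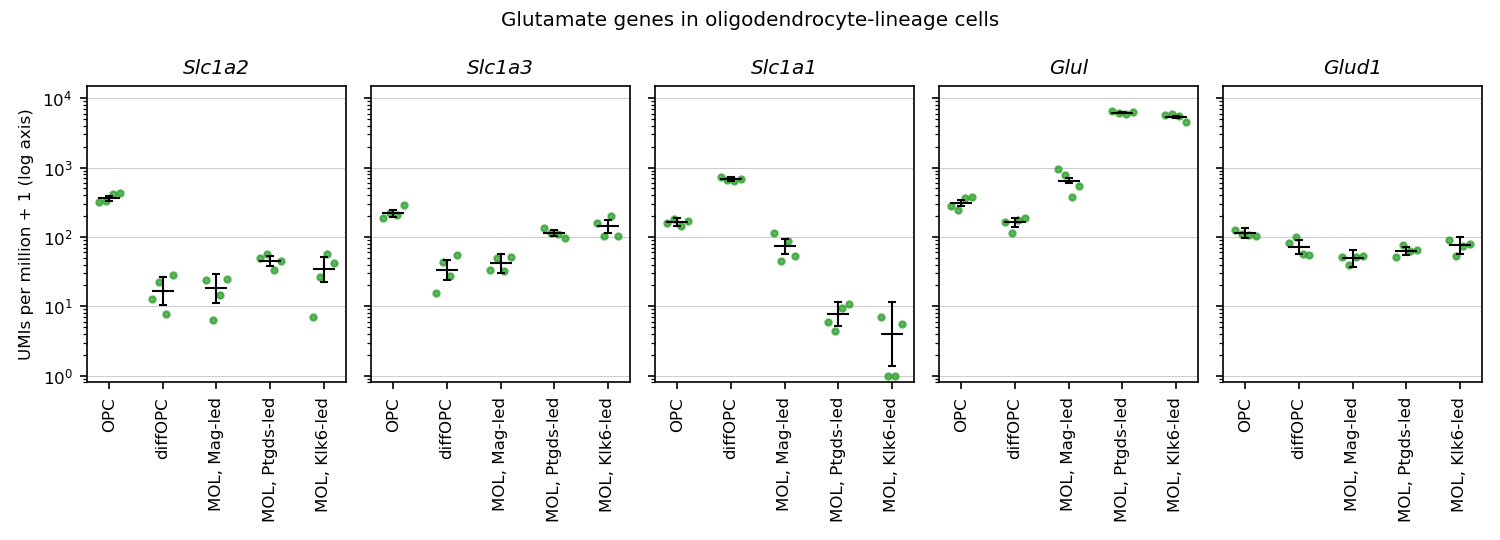
Levels of 5 genes in OPC-like, diffOPC-like and the 3 clusters of MOL-like cells, as CPM plus 1 on a log axis. Black marks are all cells of a group with the exact 95% Poisson interval and green points the 4 barcode numbers. Slc1a1 peaks in diffOPC-like cells (685 CPM), and Glul goes from 162 CPM there to 644, 6215 and 5323 CPM in the MOL-like clusters.

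Release of glutamate from synaptic vesicles requires a vesicular transporter, and Slc17a6 is the usual one of the hypothalamus. Neuron-like cells had 73.0 CPM of Slc17a6 (66.7 to 79.6), with 77.0, 60.6, 70.7 and 79.2 CPM in the 4 numbers, and they held 499 of its 516 UMIs. Microglia-like cells were next at 2.94 CPM (0.801 to 7.53) from 4 UMIs. No other type exceeded 1.02 CPM, and 7 types had no UMI. Slc17a7 had 1 UMI in all 5982 cells, in an astrocyte-like cell. In the 6839820 UMIs of neuron-like cells none was found, which with 3 counts as the limit allows up to 0.439 CPM. The exact interval ends at 0.539 CPM.

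A UMI of Slc17a6 or Slc17a7 was present in 136 of 564 neuron-like cells, 24.1% (20.6 to 27.9). The share in the 4 barcode numbers was 24.4%, 18.8%, 23.1% and 28.1%. In MOL-like cells, which should lack vesicular transporters, it was 0.601% at a median depth of 6150 UMIs, against 12731 UMIs in neuron-like cells. At 2000 UMIs per cell, with 7 neuron-like cells left out as shallower, the shares were 11.3% (8.8 to 14.2) and 0.301%. Slc32a1, Gad1 and Gad2, which make and load the inhibitory transmitter GABA, were together found in 82.4% (79.1 to 85.5) of neuron-like cells and 6.16% of MOL-like cells.

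Both kinds of transmitter gene were then sought in the same cells. A GABA gene UMI was found in 50.7% (42.0 to 59.4) of the 136 Slc17a6-positive cells and in 92.5% (89.6 to 94.8) of the other neuron-like cells. After thinning to 2000 UMIs these shares were 19.0% (10.2 to 30.9) and 71.3% (67.0 to 75.2). Cells with both kinds were 12.2% of neuron-like cells in all UMIs, 2.15% when thinned, 6.56% when at least 2 UMIs were required and 3.55% for Slc17a6 with Slc32a1 alone, so the share of cells with both kinds depended on depth and on the rule.

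When neuron-like cells were clustered alone, without the genes of the pathway, they fell into 16 subclusters, and the Slc17a6 UMIs lay in 4 of them. These 4, of 156 cells, held 475 of the 499 UMIs (95.2%). The subclusters were looked at after the levels in neuron-like cells had been seen, so their levels are a description. The subcluster led by Fezf1 and Adcyap1 (45 cells) had 315 CPM (263 to 375), and that led by Tac2 (55 cells), the gene of neurokinin B, had 308 CPM (269 to 352). Ppp1r17-led cells (23 cells) had 231 CPM (168 to 309). Cells led by Avp and Pomc (33 cells), with 2038 CPM of Pomc, had 157 CPM (125 to 195). The Fezf1-led cells were unevenly spread over the 4 numbers, at 2, 5, 24 and 14 cells, and their median depth was 4761 UMIs.

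The other 12 subclusters had 15.7 CPM or less. Slc17a6 was at 1.87 CPM in cells led by Npy and Agrp (61 cells), at 2.51 CPM in Vip-led cells (55 cells), at 5.64 CPM in Ghrh-led cells (24 cells) and at 0 in Sst-led cells (33 cells). In the Tac2-led cells, 54 of 55 had a Slc17a6 UMI and 27 of these also had a GABA gene UMI, while Slc32a1 was at 15.4 CPM. Slc32a1 was between 124 and 426 CPM in 11 of the 12 subclusters with little Slc17a6, and at 0 in the 8 cells led by Cga and Pomc. Those 8 cells carry the pars tuberalis hormone subunit gene Cga at 23039 CPM, and without them the share of neuron-like cells with a vesicular transporter UMI was 24.5%.

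**Figure D4:**
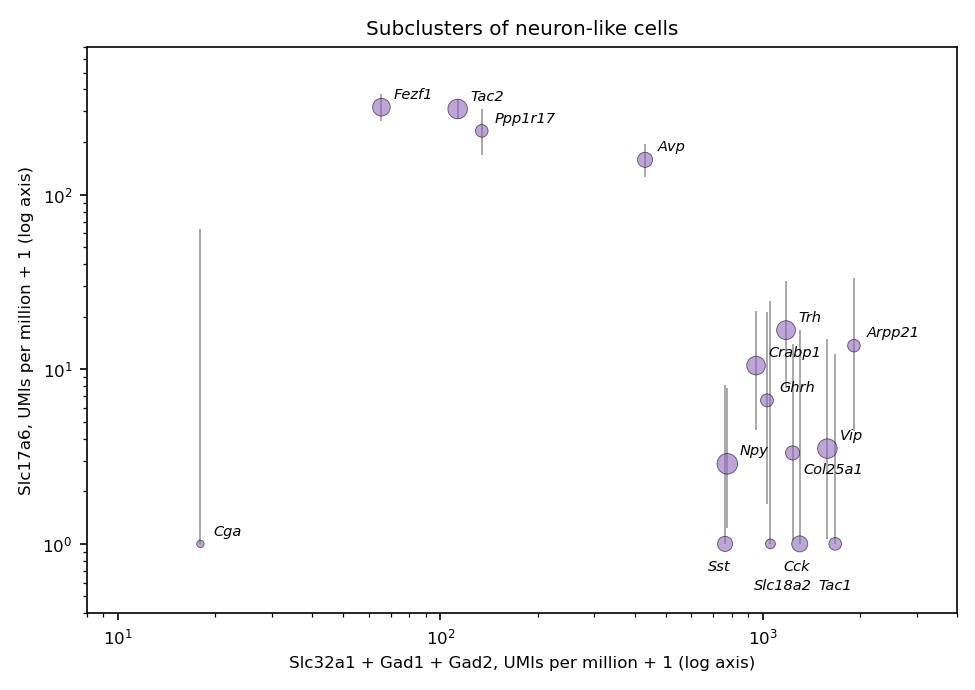
Slc17a6 against the sum of Slc32a1, Gad1 and Gad2 in the 16 subclusters of neuron-like cells, both as CPM plus 1 on log axes. Each circle is a subcluster named by its leading gene, its area follows the number of cells, and grey lines are exact 95% Poisson intervals of Slc17a6. Of the subclusters, 4 lie at 157 to 315 CPM of Slc17a6 and the other 12 at 15.7 CPM or less.

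The rest of the pathway was described from lists of 19 transport and metabolism genes, 18 ionotropic receptor genes, 8 metabotropic receptor genes and 3 GABA genes. A gene was counted when it had at least 100 CPM in its highest type and at least 2 times the next type on the (CPM + 10) scale. This held for 3 of 19, 2 of 18, 1 of 8 and 3 of 3 genes, and for 11% of all 13825 genes with at least 50 UMIs. The median ratio of highest to next type was 1.497, 1.51, 1.23 and 13.4 in these lists and 1.24 over all genes tested.

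Among transport and metabolism genes, Slc7a11 (xCT), which exports glutamate in exchange for cystine, was highest in astrocyte-like cells at 476 CPM (454 to 498). Its 4 values there were 372, 358, 659 and 574 CPM, a wider spread than for the uptake genes. Slc38a5, a glutamine transporter, was at 242 CPM in endothelial-like cells and at 0.735 CPM in the next type. Gpt2, which makes alanine from glutamate and pyruvate, was at 137 CPM in OPC-like cells. The other glutamine transporters were less restricted. Among the named types Slc38a1 was highest in ependymocyte-like (413 CPM) and tanycyte-like cells (273 CPM), with 388 CPM in the Dio3-led and 154 CPM in the Scn7a-led tanycyte-like cells. The 63 Gfap-led astrocyte-like cells had 536 CPM. Slc38a3 was highest in endothelial-like (163 CPM, 113 to 226), ependymocyte-like (116 CPM, 95.7 to 139) and astrocyte-like cells (97.7 CPM). The endothelial-like value rested on 35 UMIs in 84 cells. It overlapped that of ependymocyte-like cells in interval and in the 4 numbers.

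Among the named types Slc17a8 (VGLUT3), the remaining vesicular transporter, was highest in tanycyte-like cells at 19.4 CPM (15.8 to 23.5). Of its 103 UMIs there, 102 lay in 1 cluster, at 37.7 CPM (30.7 to 45.8) in the Dio3-led cells and 0.382 CPM (0.00968 to 2.13) in the Scn7a-led cells. In the 4 numbers it ran from 30.4 to 48.7 CPM in the first and from 0 to 1.15 CPM in the second.

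Glutamate receptors were not a feature of neuron-like cells alone. Of the 18 ionotropic receptor genes, 10 were highest in OPC-like cells, 4 in neuron-like cells and 2 in astrocyte-like cells, with 16 of the 18 at 50 UMIs or more. The AMPA receptor gene Gria3 was at 197 CPM (173 to 223) in OPC-like cells against 53.7 CPM in diffOPC-like cells. Of the 8 metabotropic genes, 4 were highest in neuron-like cells and 1 in OPC-like cells, with 5 of the 8 at 50 UMIs or more. The OPC-high gene was Grm5, at 234 CPM (208 to 263) in OPC-like cells and 86.7 CPM in neuron-like cells. Grm6 had no UMI. The GABA genes Slc32a1, Gad1 and Gad2 reached 187, 293 and 387 CPM in neuron-like cells, and the highest level of any of them elsewhere was 39.4 CPM, for Gad1 in OPC-like cells.

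The NMDA receptor subunit genes differed in their highest cell type. Grin1, the obligatory subunit, was at 62.3 CPM (56.5 to 68.5) in neuron-like cells and 11.04 CPM in OPC-like cells. Grin2b was at 169.9 CPM (160.3 to 179.9) in neuron-like cells and 47.2 CPM (40.6 to 54.5) in astrocyte-like cells. Grin2c was at 92.3 CPM (83.0 to 102) in astrocyte-like and 6.29 CPM in neuron-like cells, and Grin3a at 89.1 CPM (73.5 to 107) in OPC-like and 25.6 CPM in pars tuberalis-like cells. Grin1 itself was at 3.57 CPM in astrocyte-like cells from 14 UMIs. Grin2a was at 15.1 CPM in both ependymocyte-like and neuron-like cells, and Grin2d and Grin3b had 4 UMIs each in all cells.

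**Figure D5:**
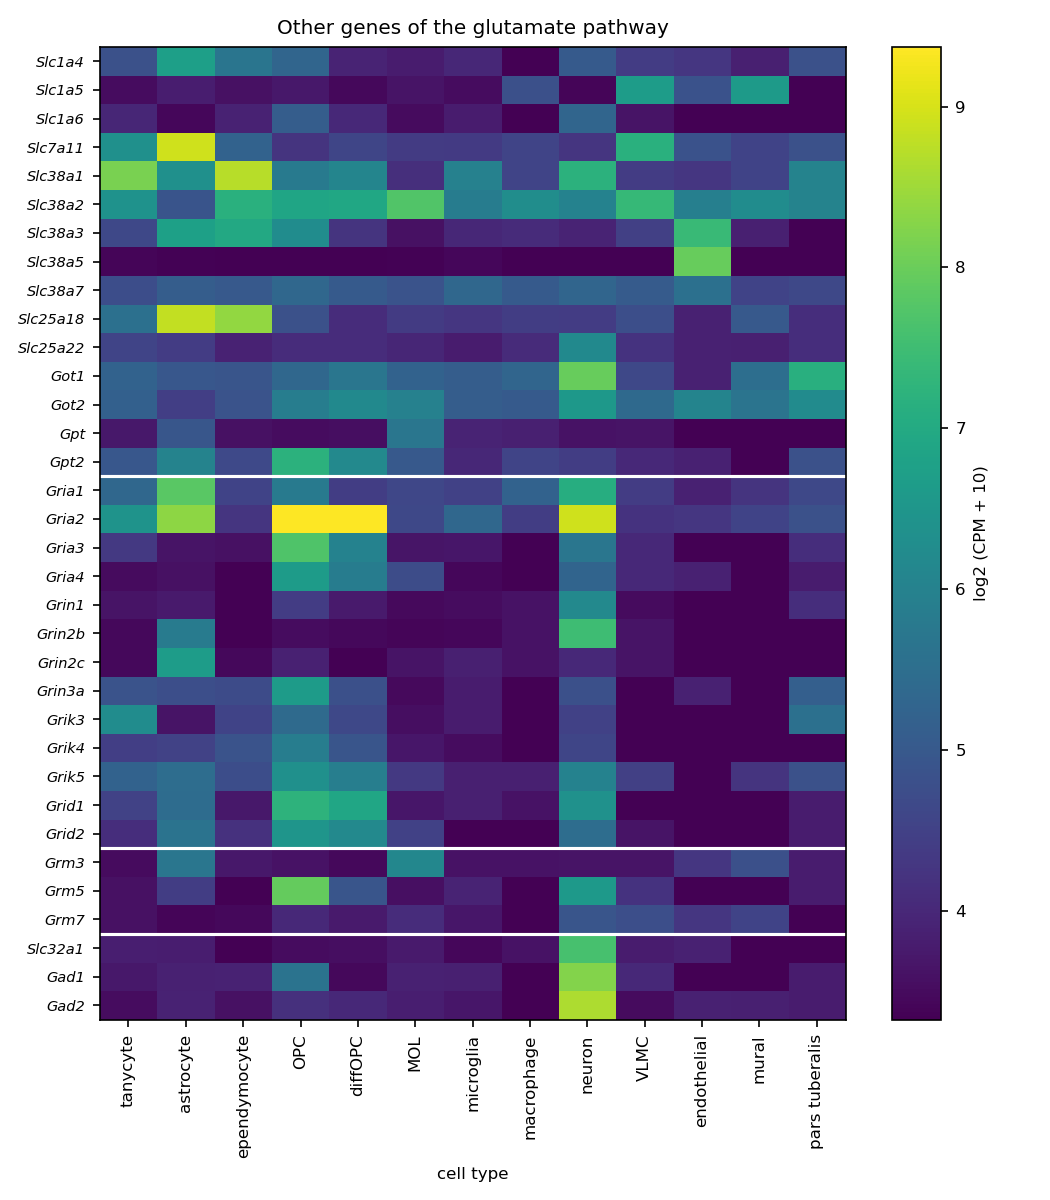
Levels of 34 listed genes with at least 20 CPM in some type, as log2 (CPM + 10), in the 13 cell types. White lines part transport and metabolism, ionotropic receptors, metabotropic receptors and GABA genes. Gria3 (197 CPM) and Grm5 (234 CPM) are highest in OPC-like cells, and the 3 GABA genes stand out in neuron-like cells.

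Of the 3 unnamed clusters, 1 of 354 cells led by Gfap and Tgfb2 scored highest for tanycyte markers without reaching the margin for a name. It had 586 CPM of Slc1a2 (549 to 624), 675 CPM of Slc1a3 (635 to 716), 421 CPM of Glul (389.7 to 454) and 120 CPM of Glud1 (104 to 139). Its Slc1a2 level was 471 to 671 CPM in the 4 numbers, above the 108 to 125 CPM of tanycyte-like cells and below the 1473 to 1619 CPM of astrocyte-like cells. Slc38a1 was at 625 CPM and Slc17a8 at 23.1 CPM in the same cluster.

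The genes whose profile over the 13 cell types was most like each member were sought among 7761 other genes with at least 500 UMIs, by Pearson's r of log2 (CPM + 10). The points share libraries and depth, so r is a description. Tlcd1 (0.959), Gm3764 (0.931) and Fam181b (0.928) came first for Slc1a2, and Slc27a1 (0.927), Nkain4 (0.904) and Tst (0.902) for Slc1a3. For Glud1 they were Whamm (0.96), Fads2 (0.936) and Lcat (0.928), and for Slc1a1 Dock9 (0.923), Sh3bp4 (0.913) and Pank3 (0.902). Glul had the loosest likeness, with Ddit4 (0.865) and Selenop (0.808). Slc17a6 was most like Mrap2 (0.994), Otp (0.988) and Agrp (0.988) over cell types, although Agrp and Slc17a6 lay in different subclusters of neuron-like cells.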

How the data were processed

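Droplet single-cell RNA-seq (10x Genomics 3' chemistry) was analysed as deposited: the authors' matrix holds UMI counts per gene and cell, not normalized, made with Cell Ranger 2.0 on mm10 per the submitters' processing notes. The 32 sample records are index and lane portions of 4 libraries (16 fasted, 16 refed), and no barcode number is tied to them, so the design's conditions were not compared and no test was run. Cells with over 10% haemoglobin UMIs (3 cells) were set apart. Scanpy 1.11.5 was used with log-normalized counts, 2000 variable genes without the pathway genes, 30 principal components, 15 neighbours and Leiden resolution 1. A cluster took a name from its marker list at a score of at least 0.3, 1.5 times the next list, with 3 or more markers raised at least 4 times. Scrublet called 50 cells (0.836%), which were kept in the main results.

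CPM was computed from summed counts with exact Poisson intervals (scipy 1.17.1), and folds used CPM plus 10 over genes with at least 50 UMIs. Depth per cell sets the precision: cells were thinned to 1000 UMIs (2000 for transmitter genes). UMI intervals cover counting error only. Genes named were the 7 members, list genes past 100 CPM and 2-fold, a set of transporters, GABA and NMDA receptor genes, and the 3 most alike genes per member, of which some results are not reported here. The members, markers and lists were chosen with earlier results of these data known. Neuron-like cells were clustered alone after their levels had been seen. Alternatives were other clusterings, doublet and cell filters, thinning, per-cell means, another pseudocount and leaving out each barcode number. The 2-fold rule and the Poisson interval were tested on simulated Poisson counts. Clustering, naming, thinning and transmitter classes were not tested in this way.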

Additional observations from a re-analysis of the deposited data

How the results depend on the processing

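The level of each member with over 50 UMIs in its highest cell type was recomputed under 13 alternatives. Of 76 values, 63 lay within the counting interval. The highest type was kept in all 76, which count only settings with a cluster named as that type. All 76 lay at 0.772 to 1.14 times the reported level. The lowest were Slc1a1 in diffOPC-like cells without barcode number 2 or 3, at 529 and 532 CPM. Cells were clustered and named again in these settings, so the groups were not the same cells. Numbers 2 and 3 themselves had 659 and 645 CPM, below the 685 CPM of all diffOPC-like cells. Glul in MOL-like cells was 5413 and 5462 CPM in these settings, against 4917 CPM. Which cells changed type was not tested. With K-means 3 members were past 2-fold in place of 5, since several types were not named. It was 4 with the pathway genes among the variable genes, without doublets, without barcode number 2 or 3 and at 1000 UMIs per cell, where Slc17a6 was lost, and 5 in the other settings. With K-means no value was had for the lineage, for Slc1a1 in diffOPC-like cells or for neuron-like cells. The highest type with a name was then MOL-like for Slc1a1 (18.3 CPM) and astrocyte-like for Slc17a6 (1.02 CPM). The share of neuron-like cells with Slc17a6 or Slc17a7 was 11.3% at 2000 UMIs and 19.7% with at least 2 UMIs required. The share with both kinds was 2.15%, 6.56% and, for Slc17a6 with Slc32a1 alone, 3.55%. At 4-fold the lists held 1 transport, 0 ionotropic and 0 metabotropic genes, and without a minimum level 6, 5 and 2. Over all genes with at least 1 UMI, 14.1% passed the 2-fold rule. Depth limits statements on Slc17a7, on Slc17a6 outside neurons and on cell types of under 100 cells. Leaving out the cells of shared barcodes or the Cga-led neurons, both chosen after the data were seen, changed no direction. No paired analysis was possible because the columns of the matrix carry no condition.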
